A study of Mus musculus with 8 samples.

Results

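Cytosolic ribosomal proteins were examined in cortex RNA of mice fed a normal or a high fat diet. The members were the protein-coding genes whose symbols begin with Rpl or Rps and then a digit or a p, without the ribosomal S6 kinases (Rps6k) and Rps19bp1. They numbered 80 of the 13996 genes with values, of which 49 encode proteins of the large and 31 of the small ribosomal subunit. The choice used names only and no measured value. Male C57BL/6 mice, for which the labels name no modified allele, were fed from 8 weeks of age, 4 with a conventional diet (Normal 1 to 4) and 4 with a diet of 60% fat by weight (HFD 1 to 4), and their cortexes were taken under ether at 16 weeks. The high fat diet fed mice were heavier and handled glucose poorly, according to the labels. Each mouse gave 1 stranded library from rRNA-depleted total RNA, with an RNA integrity number above 9 in all.

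A cytosolic ribosome joins a small subunit, which reads the mRNA, with a large subunit, which forms the peptide bonds. Each subunit is rRNA with a fixed set of proteins, mostly a single copy of each, so the genes are active in nearly every cell. Their mRNAs begin with a run of pyrimidines (the terminal oligopyrimidine or TOP motif), through which the mTOR pathway and the binding protein Larp1 control translation. In neurons the same proteins are also needed for local synthesis in dendrites and axons. The genome carries many processed copies of these genes, most of them pseudogenes.

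Pyrimidine runs were common near the start sites of the members. RefSeq sequence on GRCm38.p6 was matched by symbol for 60 of the 80 members, with 71 annotated starts. A run of at least 8 consecutive C or T lay within 50 bases of the start, on the sense strand, at 57 of 71 starts (80.3%). Such a run may lie wholly before the start, and it covered the first transcribed base at 17 of the 71 starts (23.9%), against 3.86% of all promoters. The wider count, within 50 bases, compares with 35.7% of all promoters of the same length and 32.5% of those of the protein-coding genes tested. The letters CGGAAG, which occur in sites of ETS factors, were found on either strand within the 300 bases around 44 of 71 starts (62.0%), against 16.9% of all promoters and 28.9% of those of the protein-coding genes tested. Some of the CGGAAG matches on the opposite strand overlap the pyrimidine run. A match is a description of the letters only. Start windows are shown for 3 members that were higher on the high fat diet and 2 that were lower, chosen to show the run near starts of members that differed in each direction. Capitals mark the longest run, or the leftmost of those equally long.
Rpl27a (chr7:109519186-109519215, plus strand, higher): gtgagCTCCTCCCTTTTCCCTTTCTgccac
Rpl38 (chr11:114668568-114668597, plus strand, higher): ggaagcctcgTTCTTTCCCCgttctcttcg
Rpl11 (chr4:136053357-136053386, minus strand, higher): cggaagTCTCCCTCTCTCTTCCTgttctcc
Rpl7a (chr2:26910789-26910818, plus strand, lower): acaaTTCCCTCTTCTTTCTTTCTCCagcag
Rps27l (chr9:66946054-66946083, plus strand, lower): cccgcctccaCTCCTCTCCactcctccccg
The run spans 20 bases in Rpl27a, 10 in Rpl38, 17 in Rpl11, 21 in Rpl7a and 9 in Rps27l. Counted from the annotated start, its first base is at position -4 in Rpl27a, -2 in Rpl38 and -14 in Rpl7a, so that it covers the start in these 3. In Rpl11 it begins at position 14, inside the transcript, and in Rps27l at position -22, wholly before the start, and neither of those windows holds the start itself. The Rps27l window also holds another run of 9, left in lower case. Among the members with a matched start it was present in 7 of the 8 that were higher, 2 of the 5 that were lower and 42 of the 47 that did not pass the threshold.

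All 80 members were expressed, most of them strongly. Levels are given as FPKM (fragments normalized to transcript length and to the mapped reads of the library), which is per length and can be set side by side between genes, although it rests on the transcript length the authors' annotation gives. The median level over the members was 203 FPKM, against 9.79 over all genes tested. Rplp1, a protein of the stalk that recruits elongation factors, was the highest, with 626.1 to 740.9 FPKM in the normal mice and 755.5 to 866.4 in the high fat diet fed mice. Rpl41, the shortest ribosomal protein, followed at 713 ± 27.9 on the normal and 704 ± 68.5 on the high fat diet (SD, n = 4). Rps15, which is needed for export of the small subunit from the nucleus, came next. Within each diet, the range of Rplp1 over the mice overlapped that of Rpl41. The lowest members were Rpl7l1 and Rps27l, paralogs of Rpl7 and Rps27, and Rps20, a protein of the small subunit head. Rps20 stood at 21.6 ± 1.49 FPKM on the normal and 23.2 ± 0.332 on the high fat diet. Its only basic coding transcript in the annotation used here is 3706 bases long, against a median of 764 bases over the members.

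**Figure D1:**
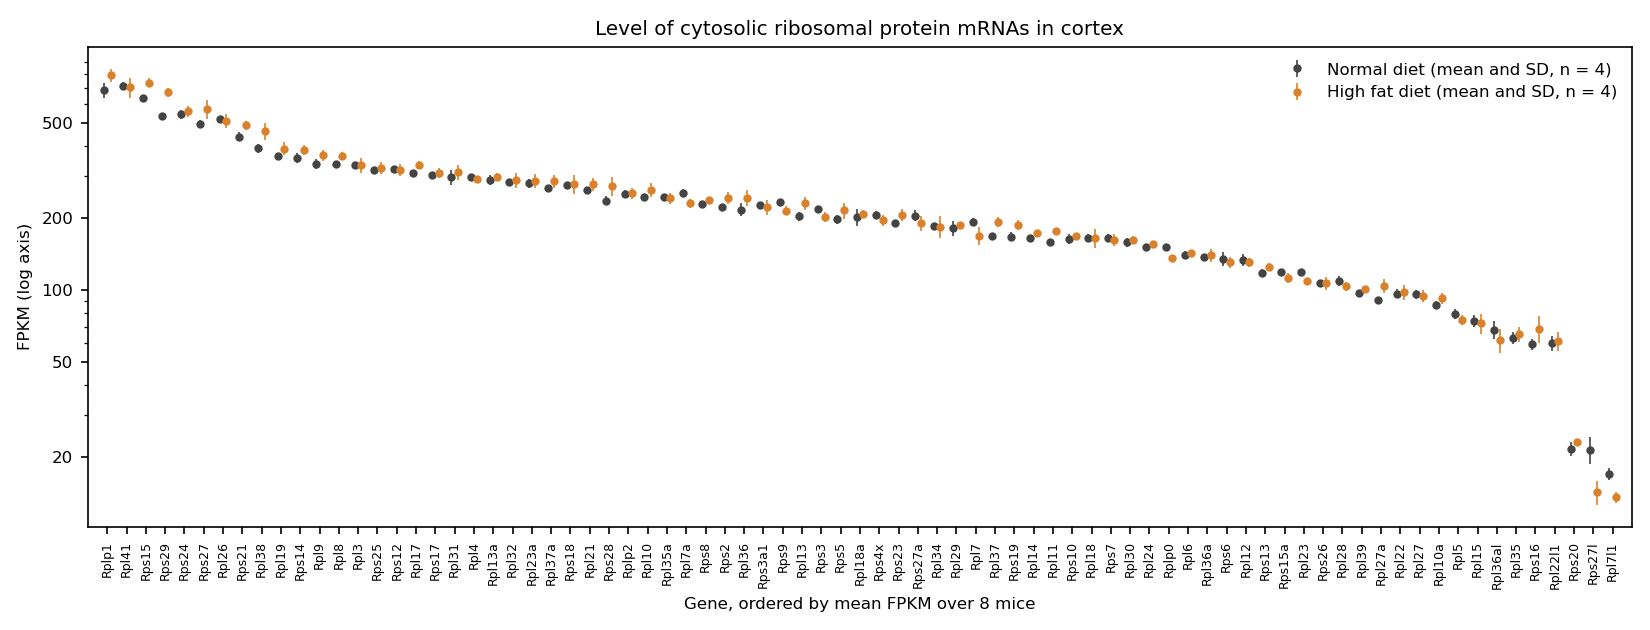
Level of 79 of the 80 cytosolic ribosomal protein mRNAs in FPKM on a log axis, ordered by the mean over 8 mice, with the mean and SD of the 4 normal (grey) and the 4 high fat diet fed mice (orange). The members run from 15.3 (Rpl7l1) to 739 FPKM (Rplp1), and Rps20, Rps27l and Rpl7l1 stand apart at the low end.

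Before the comparison of the diets, several facts of the whole set of libraries bear on it. Markers of other brain regions and cells differed between the diets, with adjusted p-values from limma below 0.05. All 9 striatum markers with values were lower in high fat diet fed mice, their summed level lying at 238.8 to 440.1 FPKM on the normal and 79.4 to 88.9 on the high fat diet, and 7 of 12 cerebellum markers were lower, from 223.9 to 769.6 against 179.6 to 228.9. The cerebellum marker Gabra6 was listed at 0 in at least 1 mouse and was not tested. All 10 oligodendrocyte and all 5 blood markers were lower too, with sums of 2146 to 3536.7 against 1482.2 to 2059.5 and of 239.2 to 479.7 against 199.1 to 247.4. Of the 10 markers of cortical projection neurons, 7 were higher, with sums of 451.6 to 639.9 against 694.1 to 865.9, and none were at 0 in any mouse, so the labelled tissue was present in each library. Choroid plexus markers, 3 of 8 lower, summed to 348.2 to 736.6 on the normal and 23.5 to 954.6 on the high fat diet, and astrocyte markers to 1243.8 to 1437.9 against 1213.8 to 1287.7, with 1 of 8 higher and 3 lower. In endothelium 1 of 6 markers was higher and 2 were lower, with sums of 78.7 to 86.4 against 71 to 80.4. No microglia marker of 8 passed, and 1 did at an unadjusted p below 0.05, with sums of 166.1 to 202.2 against 176.8 to 188.6. In bulk tissue, fewer cells of a type and less RNA per cell cannot be told apart.

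The diets were compared to ask whether 8 weeks of fat feeding moved the mRNAs of the ribosome. Of the 80 members, 15 changed (18.8%), 9 of them higher and 6 lower on the high fat diet. A gene counted as changed when its limma adjusted p, Benjamini-Hochberg over the 13982 genes tested, was below 0.05. In the background of all genes tested, 33.1% changed, 17.7% higher and 15.3% lower, so both the 11.2% of members that were higher and the 7.5% that were lower lay below it. Among the 4885 other protein-coding genes expressed at least as high as the lowest member, 42.4% changed. Leaving out single mice left 3 to 10 members higher and 3 to 4 lower, with 5 higher and 3 lower without Normal 1, 4 higher without Normal 3, 3 higher without HFD 1, 4 higher and 3 lower without HFD 2, and 3 lower without Normal 2. Fewer genes passed in the whole set too. Over those fits 23.6% to 33.0% of all genes changed, against 8.75% to 17.5% of the members. The split moved to 13 higher and 3 lower with quantile normalization, 12 and 4 when the mice were rescaled to equal protein-coding totals, and 24 and 2 with a correction for GC content and length. Under that correction the comparison with the background turned, since 32.5% of the members changed against 28.6% of all genes, with 30% against 14.4% higher and 2.5% against 14.2% lower.

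The differences were small. No member passed the threshold with a fitted change over 1.5-fold in either direction, which 7.13% of all genes tested did. Rps27l, with a mean 33.5% lower, fell just short of that minimum. Without it 15 passed in limma and 25 had an unadjusted p below 0.05. Those 25 were 31.25% of the members, below the 44.3% of all genes tested. The median log2 fold change over the members was 0.04, against 0.00 over all genes tested, and the members ranged from -0.58 to 0.33. Of the 80, 51 had a positive value (63.8%), compared with 50.6% of all genes tested. The median size of the difference, without its sign, was 0.08 for the members and 0.17 for all genes tested on the log2 scale. For 62 members (77.5%) the whole 95% interval of the difference lay within 1.2-fold in either direction, as it did for 26.6% of all genes, and for 79 it lay within 1.5-fold, against 74.3% of all genes. Precision was also higher, with a median standard error of 0.0553 for the members and 0.0844 for all genes tested. For the 4885 other protein-coding genes expressed at least as high as the lowest member it was 0.0598. Of their intervals, 42.3% lay within 1.2-fold and 89.7% within 1.5-fold.

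**Figure D2:**
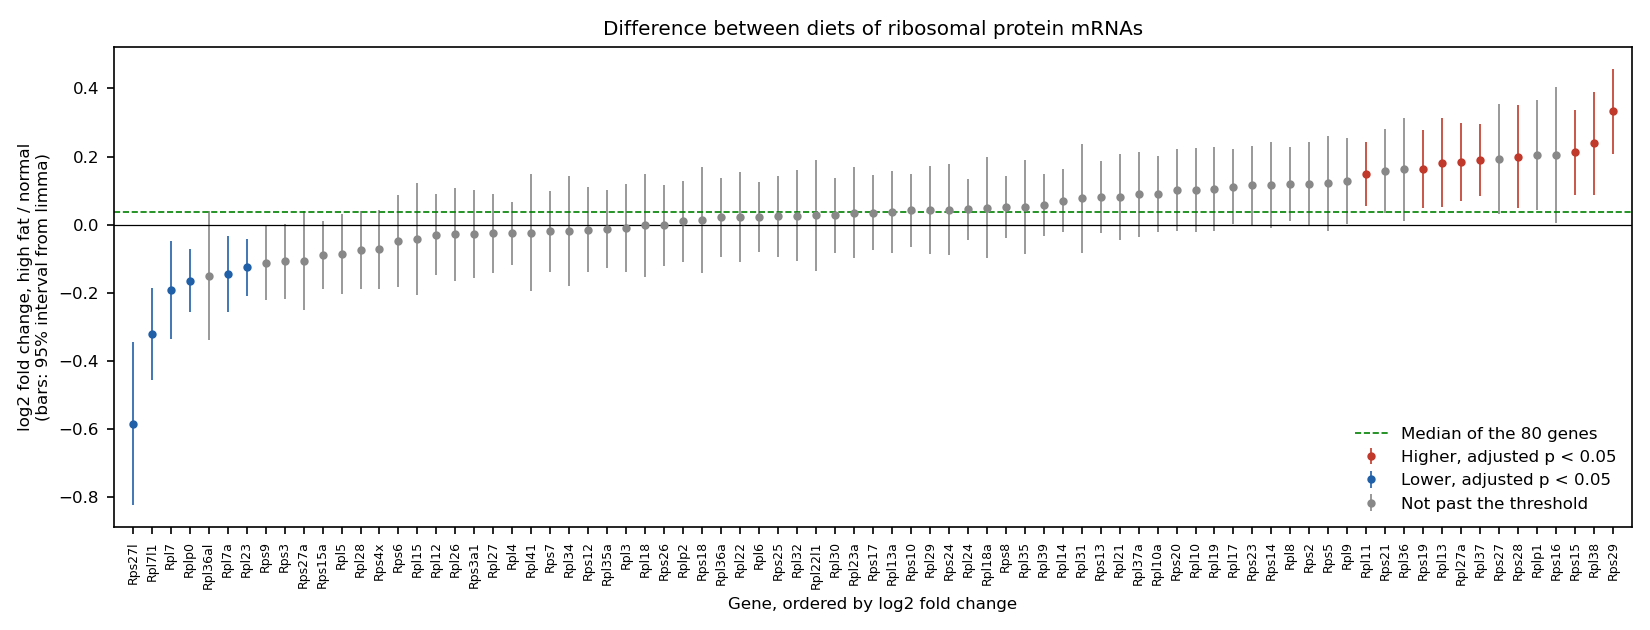
log2 fold change (high fat over normal diet) of 79 of the 80 members in ascending order, with its 95% interval from limma, in red where higher and blue where lower at an adjusted p below 0.05. The points run from -0.58 (Rps27l) to 0.33 (Rps29), and most intervals include 0.

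Of the 31 small subunit members, 4 were higher (12.9%), against 17.7% of all genes tested. Rps29, a zinc-binding protein of the small subunit head, stood at 550.6, 510.4, 526 and 541.5 FPKM in Normal 1 to 4 and at 673.5, 692.7, 689.7 and 626.6 in HFD 1 to 4. Every high fat diet fed mouse was above every normal mouse. The means were 532 ± 17.7 and 671 ± 30.5 FPKM (SD, n = 4), 26.0% higher on the high fat diet, with a log2 fold change of 0.33 (SE 0.06) and an adjusted p of 0.00272 in limma. Rps15 stood at 637.6, 650.2, 608.1 and 646.7 FPKM on the normal and at 779.1, 719.1, 705.7 and 743.4 on the high fat diet. The groups did not overlap, and the log2 fold change was 0.21 (SE 0.06, limma adjusted p = 0.0175). Rps19, the gene most often mutated in Diamond-Blackfan anaemia, rose from 167 ± 7.12 to 187 ± 8.57 FPKM without overlap (limma adjusted p = 0.0345). Rps28, another small subunit protein, stood at 227.5 to 248.8 FPKM on the normal and 242.8 to 298.7 on the high fat diet, so that HFD 4 lay inside the range of the normal mice (limma adjusted p = 0.0463).

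Of the 49 large subunit members, 5 were higher (10.2%), also below the 17.7% of all genes tested. Rpl37 stood at 172.4, 165.5, 171.1 and 165.2 FPKM in Normal 1 to 4 and at 204.4, 185, 185.1 and 195 in HFD 1 to 4. The lowest high fat diet fed mouse lay above the highest normal mouse, and the log2 fold change was 0.19 (SE 0.05, limma adjusted p = 0.0138). Rpl38, known for its role in the translation of Hox mRNAs in the embryo, stood at 378.7, 415.4, 390 and 379.8 FPKM on the normal and at 514.6, 467.2, 423.1 and 444.1 on the high fat diet. HFD 1 was the highest and HFD 3 lay just above Normal 2, with a log2 fold change of 0.24 (SE 0.07, limma adjusted p = 0.0245). Rpl11, which with Rpl5 binds the p53 regulator Mdm2, rose from 159 ± 4.43 to 177 ± 4.95 FPKM without overlap (limma adjusted p = 0.0238). Rpl27a rose from 91.2 ± 0.918 to 104 ± 6.89 FPKM, also without overlap (limma adjusted p = 0.0225). Rpl13 rose from 203 ± 9.40 to 231 ± 14.6 FPKM, and there HFD 4 at 210.7 lay below Normal 1 at 212.4 (limma adjusted p = 0.0377).

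Of the 6 lower members, 2 were paralogs with low expression. Rps27l, a paralog of Rps27 known as a p53 target, stood at 20.2, 25.2, 18.7 and 21.6 FPKM in Normal 1 to 4 and at 14.9, 15.7, 11.9 and 14.5 in HFD 1 to 4. All high fat diet fed mice were below all normal mice, and the mean was 33.5% lower, with a log2 fold change of -0.58 (SE 0.11, limma adjusted p = 0.00386), the largest difference of the 80 members. Rpl7l1, the paralog of Rpl7, stood at 16.4, 18.2, 17.3 and 16 FPKM on the normal and at 13.6, 13.3, 14.6 and 12.8 on the high fat diet. The groups were separate, and the log2 fold change was -0.32 (SE 0.06, limma adjusted p = 0.00429).

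The other lower members were large subunit proteins. Rplp0, the stalk base that holds Rplp1 and Rplp2 on the ribosome and a common reference gene in quantitative PCR, stood at 150.1, 155.5, 151.1 and 149.6 FPKM on the normal and at 142.3, 131.9, 132.4 and 134.7 on the high fat diet. All 4 high fat diet fed mice were below the normal mice, with a log2 fold change of -0.16 (SE 0.04, limma adjusted p = 0.0154). Rpl23, which also binds Mdm2, stood at 118.8, 121.9, 115.4 and 118 FPKM against 107, 109.8, 109.9 and 107.9, again without overlap (log2 fold change -0.13, limma adjusted p = 0.0296). Rpl7 was at 190.3, 203.5, 188.4 and 187.7 FPKM against 173.5, 169.2, 149.5 and 183.1 (log2 fold change -0.19, limma adjusted p = 0.0450), with Normal 2 the highest and HFD 3 the lowest. Rpl7a was at 255 ± 10.1 against 231 ± 9.73 FPKM (log2 fold change -0.14, limma adjusted p = 0.0498).

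**Figure D3:**
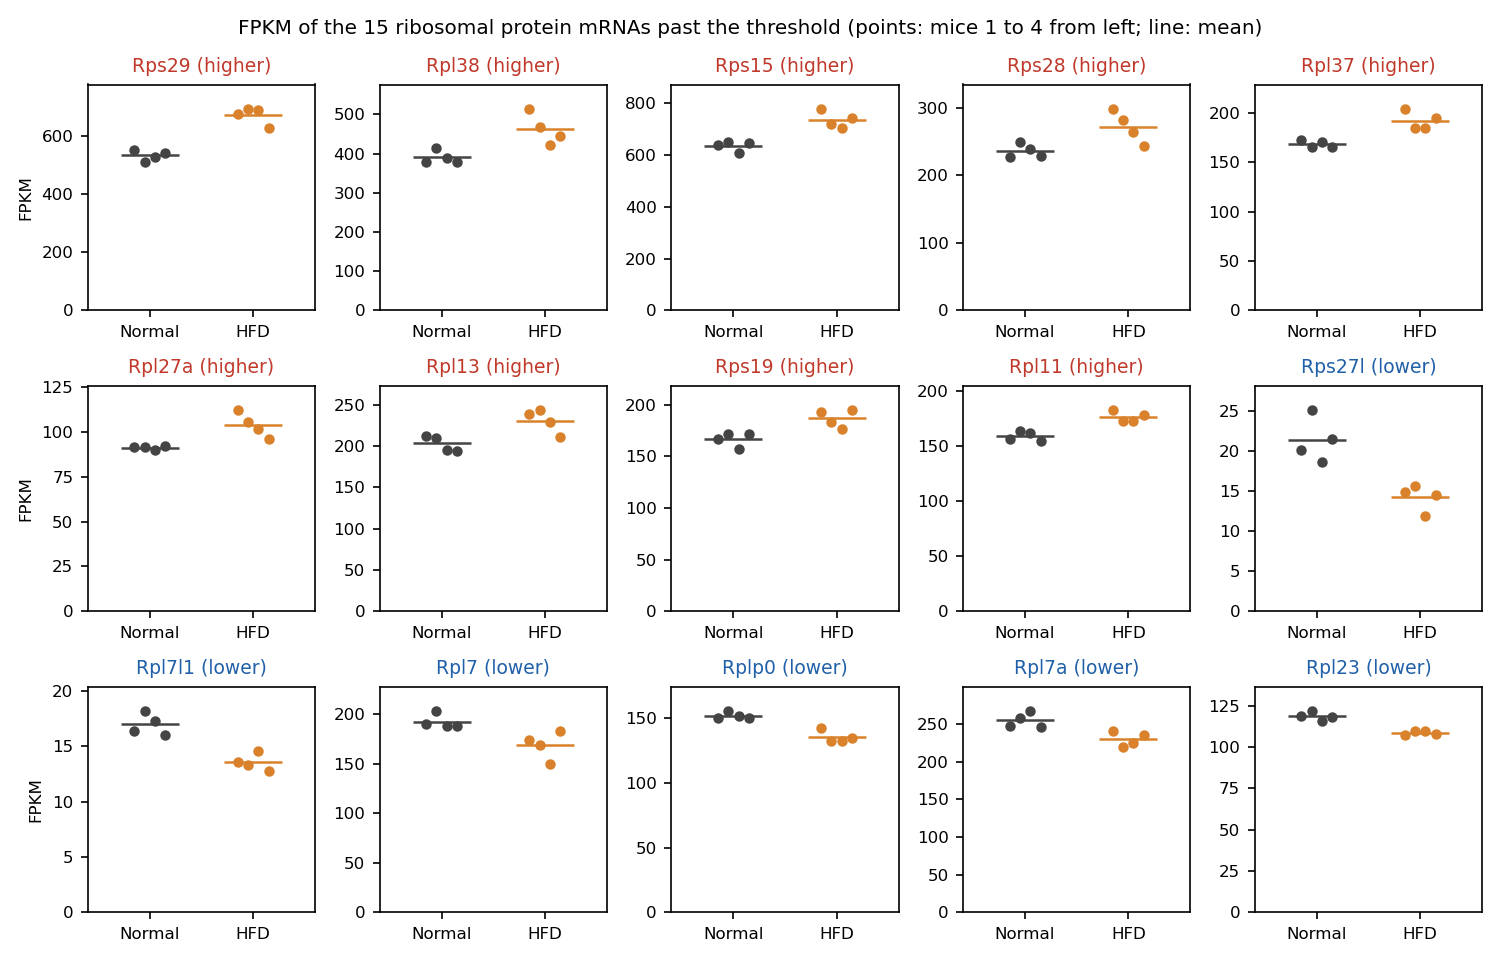
FPKM of the 15 members past the threshold, each panel with its own axis from 0, showing mice 1 to 4 of each diet from left to right and a line at the mean. The 9 higher members (red titles) rise by 10.9% to 26.0%, the 6 lower members (blue titles) include Rps27l at 33.5% lower, and Rps28 and Rpl13 are the ones whose diets overlap.

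The 15 calls were not equally firm. In every one of the 8 fits that left out 1 mouse, 6 of the 15 stayed past the threshold: Rps29, Rps15 and Rpl37 higher and Rps27l, Rpl7l1 and Rplp0 lower. Their highest adjusted p over those fits was 0.0107 for Rps29, 0.0106 for Rps27l, 0.0165 for Rpl7l1, 0.0411 for Rpl37, 0.0476 for Rplp0 and 0.04999 for Rps15, in each case from limma. On GRCm38 these genes lie at chr12:69157722-69159186 (Rps29), chr10:80292453-80294114 (Rps15), chr15:5116645-5119140 (Rpl37), chr9:66946086-66949516 (Rps27l), chr17:46773907-46782672 (Rpl7l1) and chr5:115559467-115563727 (Rplp0). Rpl7a was lost in all 8 of those fits, and Rps28 and Rpl7 in 7 of 8. Without overlap between the diets, 12 members were above (15%, background 17.2%) and 7 were below (8.75%, background 14.7%), and 13 of these 19 were among the 15 called. Rps21, chosen after its values were seen (limma adjusted p = 0.0521), and Rplp1 (0.0547) lay just outside the threshold, both above the normal mice without overlap, while Rpl7a (0.0498) and Rps28 (0.0463) lay just inside.

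The stalk proteins showed different values. Rplp1 stood at 709.1, 669.4, 626.1 and 740.9 FPKM on the normal and at 866.4, 755.5, 771.5 and 769.6 on the high fat diet, 15.2% higher on average (log2 fold change 0.20, SE 0.07), and Rplp0 fell as given above. Rplp2, the partner of Rplp1, was at 252 ± 10.5 and 254 ± 13.5 FPKM, with a log2 fold change of 0.01 and a 95% interval from -0.11 to 0.13. The difference between the 3 stalk genes was not tested.

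Further members of known role did not pass the threshold. Rpl5, the partner of Rpl11 in Mdm2 binding, was at 79.5 ± 4.03 FPKM on the normal and 74.9 ± 3.57 on the high fat diet (log2 fold change -0.09, 95% interval from -0.20 to 0.03). Rps6, the protein phosphorylated by the S6 kinases downstream of mTOR, was at 135 ± 9.13 and 130 ± 6.79 FPKM (log2 fold change -0.05, 95% interval from -0.18 to 0.09). Rpl3 and Rpl4, core proteins of the large subunit, had log2 fold changes of -0.01 (95% interval from -0.14 to 0.12) and -0.02 (from -0.12 to 0.07). Rpl10, which joins the large subunit late in assembly, had 0.10 (from -0.02 to 0.23). Rps3, at the entry of the mRNA channel, had -0.11 (from -0.22 to 0.00), and Rps27a, which is made as a fusion with ubiquitin, had -0.11 (from -0.25 to 0.04). Rpl41 had -0.02 (from -0.20 to 0.15).

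Paralog pairs were compared as ratios within each mouse, which does not depend on scaling between mice. Rps27l was 3.97%, 4.99%, 3.97% and 4.31% of Rps27 in Normal 1 to 4 and 2.37%, 2.70%, 2.37% and 2.57% in HFD 1 to 4. All 4 ratios on the high fat diet were below all 4 on the normal diet, with a log2 difference of -0.78 and an exact two-sided permutation p of 0.0286, the smallest that 70 assignments allow. Adjusted over the 5 pairs compared it was 0.143, so no single pair could pass. The parent Rps27 was itself at 497 ± 16.9 and 569 ± 52.5 FPKM (log2 fold change 0.19, limma adjusted p = 0.0646). Rpl22l1 was 62.0% ± 4.46 of Rpl22 on the normal and 62.2% ± 5.13 on the high fat diet (exact permutation p = 0.971). Rpl7l1 was 8.82% ± 0.303 and 8.11% ± 1.17 of Rpl7 (exact permutation p = 0.257, adjusted 0.321), with both genes lower. Rpl36al against Rpl36a, at 49.8% and 44.3%, and the pseudogene Rps4l against Rps4x, at 8.10% and 10.8%, had exact permutation p-values of 0.114 each (adjusted 0.190).

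The summed share of the members in protein-coding FPKM varied more among the high fat diet fed mice than among the normal mice. The 80 members made up 5.50%, 5.59%, 5.50% and 5.48% of the summed protein-coding FPKM in Normal 1 to 4 and 6.09%, 5.76%, 5.52% and 5.98% in HFD 1 to 4. The share was 5.52% ± 0.0494 on the normal and 5.84% ± 0.252 on the high fat diet, and HFD 3 lay within the range of the normal mice. Of the FPKM of all genes the members made up 3.00% ± 0.104 and 3.18% ± 0.136. The spreads were closer there, and HFD 2 was the highest at 3.35%. HFD 1 held the highest of the 8 values for 33 members and HFD 4 for 22, whereas HFD 3 held the lowest for 24, Normal 3 for 18 and Normal 4 for 16. The median coefficient of variation of a member was 3.89% among the normal and 5.41% among the high fat diet fed mice, while over all genes tested it was 8.45% and 7.08%. These shares are descriptions without a test.

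Differences between the diets were described across the members against properties of their transcripts. The 20 members with the shortest annotated transcripts (345 to 560 bases) had a median log2 fold change of 0.04 with 4 higher and 1 lower. The 40 in the middle (570 to 965.5 bases) also had 0.04, with 4 higher and 1 lower. The 20 longest (975 to 5130 bases) had -0.02 with 1 higher and 4 lower. Of all genes tested, 17.7% were higher and 15.3% lower. Over the 80 members the log2 fold change had a Pearson r of -0.29 with length (Spearman rho -0.30), 0.34 with GC content (rho 0.31) and 0.51 with mean level (rho 0.36). The members share the same 8 libraries and are not independent, and the mean level contains the same values as the fold change. After correction of each mouse for GC content and length, the median over the members was 0.10 and 10 of the 15 kept their call. Across the members the corrected log2 fold change still had a Pearson r of -0.29 with length and 0.29 with GC content. Rps28 lost it with a larger log2 fold change, 0.25 in place of 0.20 (limma adjusted p = 0.0607). The other 4 lost it with smaller differences, Rplp0 at -0.11 (0.0573), Rpl7 at -0.13 (0.108), Rpl7a at -0.08 (0.192) and Rpl23 at -0.06 (0.315), each with its limma adjusted p.

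**Figure D4:**
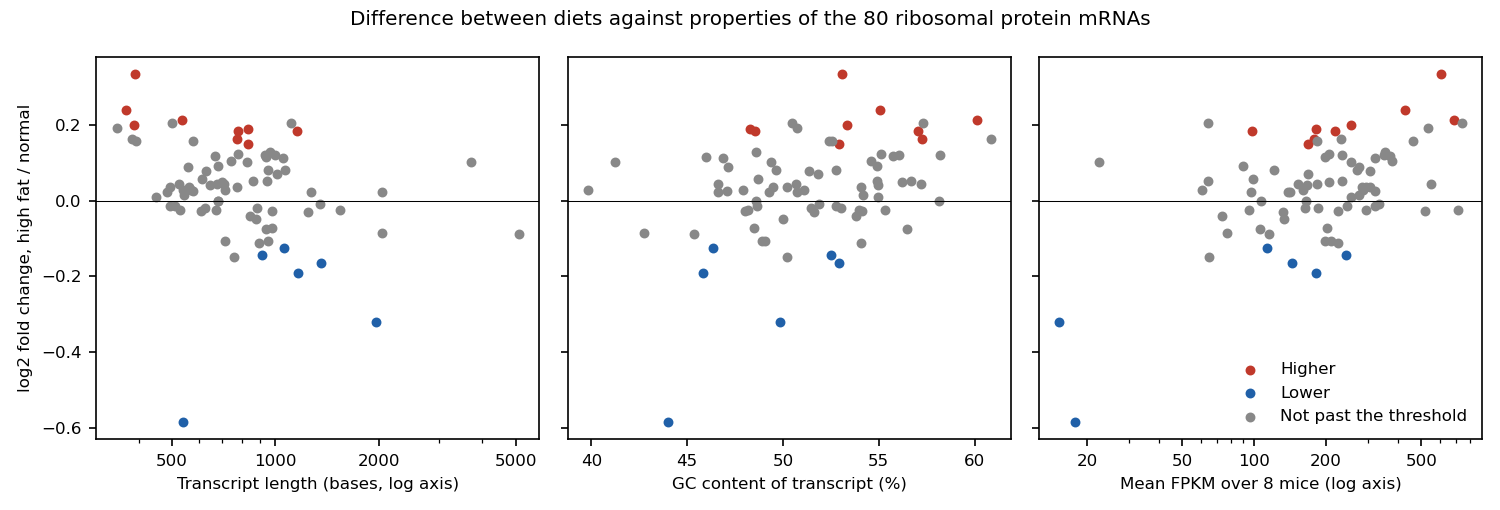
log2 fold change of the 80 members against annotated transcript length (log axis), GC content in percent and mean FPKM (log axis), coloured by whether they were higher, lower or not past the threshold at an adjusted p below 0.05. The higher members lie between 367.5 and 1158 bases, and the 2 lowest points are Rps27l and Rpl7l1, which also have the lowest levels.

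Many members share sequence with other genes. Over the members, a median of 30.3% of the 100-base stretches of the longest coding transcript also occurred exactly in annotated transcripts of other genes. The share was above 50% for 23 members and 0 for 5, and reached 84.4% in Rpl10. Reads from such stretches cannot be assigned to a gene with certainty, so these members are uncertain to that degree. Among the 6 members called in every fit without 1 mouse, the share was 0 in Rps27l, 1.68% in Rpl7l1, 8.67% in Rps15, 18.3% in Rplp0, 21.5% in Rpl37 and 24.7% in Rps29. It was 73.5% in Rpl7a, 78.9% in Rpl13 and 59.7% in Rpl11.

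Ribosomal proteins outside the naming rule were at similar values. Rpsa had a log2 fold change of 0.07, Fau 0.07 and Gnb2l1, the scaffold protein Rack1, -0.02. None of these 3 passed in limma, and none had an unadjusted p below 0.05. Of 10 pseudogene rows with ribosomal protein names, 1 was higher. That was Rps27a-ps1, at 0.825 ± 0.330 and 1.83 ± 0.544 FPKM, close to the rounding of 0.1 (log2 fold change 1.09, limma adjusted p = 0.0173).

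Among the other genes of protein synthesis, 3 groups had medians below that of the ribosomal proteins. These were elongation factors with other TOP mRNAs, biogenesis genes and tRNA synthetases. The snoRNA hosts had a median above it. Shares below compare with 15.3% of all genes tested lower and 17.7% higher, and with 22.2% and 20.2% of the 4885 other protein-coding genes described above. Of 19 elongation factors and other TOP mRNAs, 5 were lower (26.3%) and none higher at an adjusted or unadjusted p below 0.05, with a median log2 fold change of -0.08. None of the elongation factors Eef1a1, Eef1b2, Eef1d, Eef1g and Eef2 passed. The largest were the nucleolar chaperone Npm1 (-0.33) and the initiation factor subunits Eif3e (-0.29) and Eif3m (-0.29). Of 30 ribosome biogenesis genes, 6 were lower (20%) and 1 higher (3.33%), with a median of -0.09. The lower ones included nucleolin, Ncl (-0.33), and Nop58 (-0.32), a core protein of snoRNA particles. The higher one was Larp1, the TOP mRNA binding protein, at 16, 16.2, 17 and 17.7 FPKM on the normal and 21, 22.9, 21.7 and 20.9 on the high fat diet. Its groups did not overlap (log2 fold change 0.37, SE 0.05, limma adjusted p = 0.00137). Of 11 snoRNA host transcripts, 3 were higher (27.3%) and none lower at an adjusted or unadjusted p below 0.05, with a median of 0.10. The starts of these hosts were not checked for a TOP motif here. The 3 higher ones were Snhg20 (0.75), Snhg14 (0.50) and Snhg12 (0.35). Snhg20 was listed at the same 15.6 FPKM in all 4 normal mice, against 23.6 to 32.5 on the high fat diet. Its value is uncertain for that reason. Of 20 cytosolic aminoacyl-tRNA synthetases, which charge tRNAs, 12 were lower (60%) and 1 higher (5%), with a median of -0.17. Dars (-0.36), Rars (-0.33) and Tars (-0.32) were in front.

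Gene groups of other large complexes, chosen by the start of their symbols, served as comparison. The proteasome and respiratory chain groups therefore also hold genes that are not subunits, such as Psmc3ip and Ndufaf2. Of 77 mitochondrial ribosomal proteins, 21 were lower (27.3%) and none higher, with 1 higher at an unadjusted p below 0.05 and a median of -0.09, led by Mrpl42 (-0.47), Mrps28 (-0.40) and Mrpl40 (-0.39). Of 37 genes with proteasome symbols, 23 were lower (62.2%) and 2 higher, with a median of -0.16. Psma2 (-0.38) and Psmc6 (-0.34) were lower, and Psmb10 (0.37), a subunit of the immunoproteasome, was higher. Of 94 nuclear genes of the respiratory chain, 46 were lower (48.9%) and none higher at an adjusted or unadjusted p below 0.05, with a median of -0.18, led by Cox7a1 (-1.11), Uqcrb (-0.49) and Ndufaf2 (-0.44). Their median transcript length of 772.5 bases was close to the 764 bases of the ribosomal proteins, and their median level was 96.4 FPKM. With the correction for GC content and length the medians were 0.10 for the cytosolic ribosomal proteins, -0.04 for the mitochondrial ribosomal proteins, -0.12 for the proteasome and -0.12 for the respiratory chain, with 10 (13.0%), 12 (32.4%) and 37 (39.4%) genes lower in the last 3, against 14.2% of all genes. The difference between these groups was not tested.

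**Figure D5:**
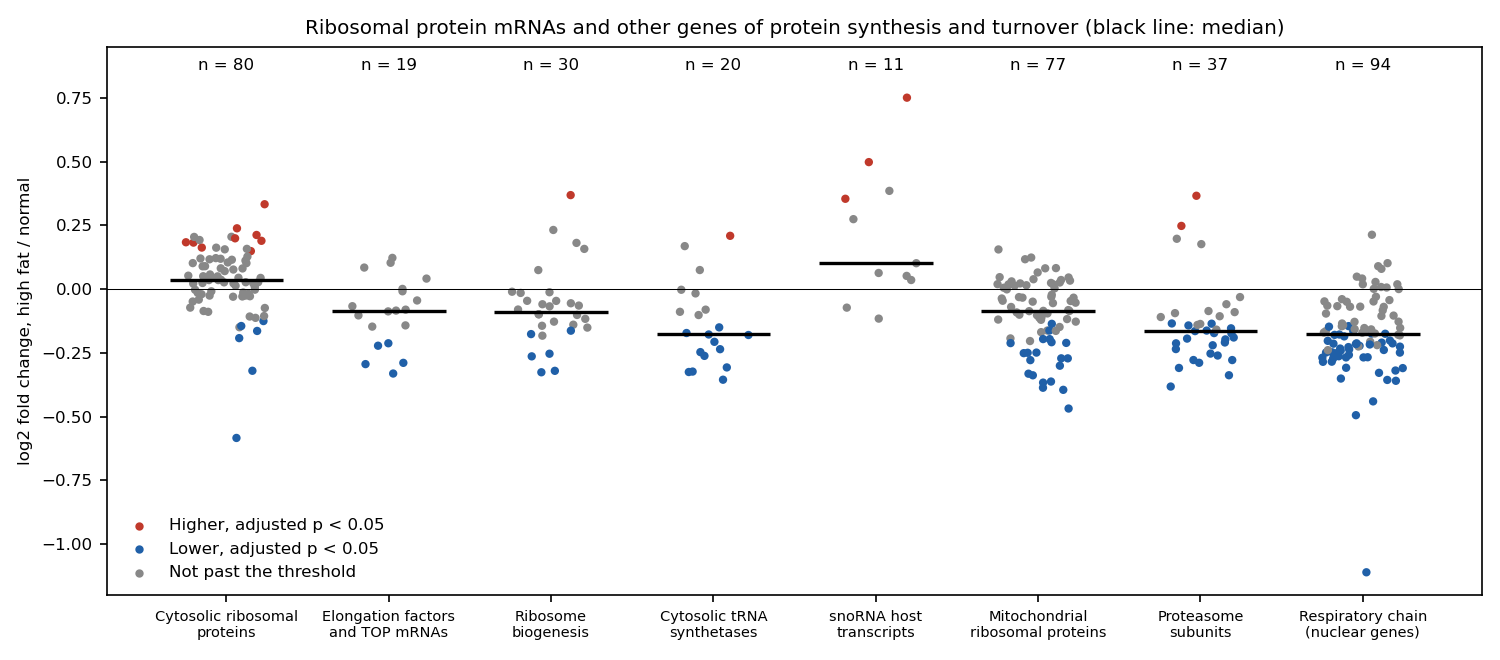
log2 fold change of each gene in 8 groups, with a black line at the group's median and colours for higher (red) or lower (blue) at an adjusted p below 0.05. The cytosolic ribosomal proteins centre at 0.04 with 9 red and 6 blue points, while the proteasome and respiratory chain centre at -0.16 and -0.18 with 23 and 46 blue points.

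The marker differences moved with the diets and so with all of these values. When the mean level of the cerebellum markers was added to the model, limma called none of the 80 members, with 12 at an unadjusted p below 0.05 (8 higher and 4 lower), against 7.72% of all genes called. With the striatum markers, which separate the diets without overlap, no gene of the 13982 passed and 3 members had an unadjusted p below 0.05, so tissue makeup and diet cannot be told apart there. The fitted differences moved by different amounts from gene to gene, and what accounts for them was not tested. With the cerebellum markers the median over the members was 0.03, and the log2 fold change was -0.54 for Rps27l, 0.27 for Rps29 and -0.14 for Rplp0. With the striatum markers it was -0.59 for Rps27l, 0.30 for Rps29 and -0.08 for Rplp0, and the median over the members was 0.16. For Rplp1 it went from 0.20 to 0.08 with either set of markers. With the striatum markers Rpl5 went from -0.09 to 0.28 and Rps6 from -0.05 to 0.42. Since these markers separate the diets without overlap, the values fitted with them are uncertain.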

How the data were processed

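The deposited values are FPKM, 1 column per mouse. The authors checked and trimmed the reads (FastQC, Trimmomatic), aligned them with STAR to mm10 and obtained FPKM from Cuffnorm with the basic set of GENCODE M17 (GRCm38.p6). Not given in the sources used here were tool versions and how reads with several matches were handled. FPKM were rounded to 0.1, so read depth is unknown and no counting interval can be given. The summed FPKM lay between 562431 and 639142 per mouse. A second quantification by the authors was not used here.

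From these, log2(FPKM + 0.1) was compared with limma 3.58.1 (R 4.3.3, two-sided, variance trend) over the 13982 genes whose FPKM averaged 1 or more and was never 0, with Benjamini-Hochberg adjustment. Fold changes on this scale understate those of low genes. Each sample is a separate mouse. Paralog ratios used exact permutation tests over all 70 assignments of the mice. Correlations across the members used scipy 1.17.1. Length and GC content are medians over basic GENCODE M21 transcripts, available for 99.9% of genes, and the GC and length correction was a loess fit per mouse (span 0.5). The procedure was tested on simulated data. Genes were named by role, by the 6 largest changes each way, by the 3 highest and lowest levels, and up to 3 per other list. Rpl13 and Rps21 were named after their values were seen. Results of 2 genes are not reported here by name. The members and lists were chosen with earlier results of these data known.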

Additional observations from a re-analysis of the deposited data

Results flagged for a closer look

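In 66 checks of 1 mouse against the other 3 of its diet, over the named members, chance would single out about 5% of groups, and 3 were singled out because the gap to the nearest mouse was a large share of the group's range. Rplp1 in HFD 1 stood at 866.4 FPKM against 755.5 to 771.5 in the other high fat diet fed mice (gap over range 0.856). Rplp2 in Normal 2 stood at 267.9 FPKM against 245.1 to 248 (0.873), and Rpl7 in Normal 2 at 203.5 FPKM against 187.7 to 190.3 (0.835).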

How the results depend on the processing

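The 9 higher and 6 lower members stayed within 1.5 times of these counts with 1 added to FPKM, a minimum mean of 5 FPKM, no filter, median-ratio rescaling and equal protein-coding totals. Lower members fell to 3 with quantile normalization and to 3 without the variance trend. The GC and length correction gave 24 higher, 2 lower and a median log2 fold change of 0.0971. The mice were not paired by number (correlations of same-numbered deviations from -0.11 to -0.03, with 0 of 8 mice correlating best with their own number). With the replicate number as a block, 4 were higher and 2 lower, and with the block and the GC and length correction together 15 and 2, median 0.0971. In these fits 24.2% and 20.9% of all genes changed, against 7.5% and 21.25% of the members. Requiring a change over 1.5-fold in either direction left 0 and 0, with Rps27l just short of it. In limma the cerebellum covariate left 0 and 0 and the striatum covariate 0 and 0, the latter with a median of 0.157, although 12 and 3 members had an unadjusted p below 0.05. Leaving out each mouse in turn gave 3 to 10 higher, 3 to 4 lower and medians of 0.02 to 0.06, while 23.6% to 33.0% of all genes changed. The cause was not tested for any of these. The unknown depth and the rounding of FPKM limit the lowest members.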
